A study of Homo sapiens with 6 samples.

Results

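The collagen chain genes are the genes for the alpha chains from which collagens are built, and they were taken here as every row of the 2 deposited FPKM tables whose symbol reads COL, a number, A and a number with nothing after it. This rule found 44 of the 25368 genes of each table, of which 11 belonged to the fibrillar class, 6 to the basement membrane class, 10 to the FACIT class, 5 to the beaded class and 12 to other classes. The data are 6 RNA-seq libraries of MRC5, an hTERT-immortalized human embryonic lung fibroblast line, with 1 library per condition. In the JUN overexpression table, MRC5 cells were infected with adenovirus that carried an empty vector (control), FLAG-tagged wild-type JUN (JUN WT) or JUN AA, a mutant in which the serines phosphorylated by JNK are replaced by alanine. In the JNKi table, MRC5 cells without treatment were set beside induced CAFs (iCAFs), which are MRC5 cells kept for 7 days in conditional medium (CM) of the breast cancer line MDA-MB-231, and beside iCAFs+JNKi, which are iCAFs that received a JNK inhibitor at 1 µM for 48 hours. The labels name DMSO as the vehicle of the inhibitor but do not say whether the iCAFs library received it. By the paper's methods CM was collected without serum while MRC5 were maintained with it, and serum in the CM culture is not stated. A difference in serum and the factors of the cancer cells therefore cannot be told apart between iCAFs and MRC5. All libraries came from this 1 cultured line, so they hold no fibroblasts of a tumor or another donor.

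Collagens are the main structural proteins of the extracellular matrix, and each molecule is a helix wound from alpha chains of the same gene or of several genes. Fibrillar collagens assemble into the cable-like fibers of connective tissue, type IV collagens form the mesh of basement membranes, FACIT collagens attach to the surface of fibrils, and type VI collagen forms beaded filaments around cells. Fibroblasts are the main collagen-producing cells of lung and skin, and deposition of collagen by CAFs is a known feature of tumor stroma.

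The authors' FPKM values are divided by gene length and by library size, so levels of different genes can be compared within a library, and the 2 tables were compared only within themselves. Differences between libraries are given as log2(FPKM + 1), a scale that understates differences of genes near 0. With 1 library per condition no difference has a replicate check, no test was made and no p-value is given, and the number of reads behind each value is unknown. Counts use genes whose FPKM averaged 1 or more over the 3 libraries of a table, which were 10311 genes with JUN overexpression and 11780 in the JNKi table, and a gene counted as 2-fold changed at a difference of 1 on the log2 scale. JUN was at 25.5 FPKM in the control against 4543 with JUN WT and 291 with JUN AA, so the JUN WT library held far more JUN mRNA than the JUN AA library. All 8 fibroblast markers, among them VIM, THY1 and PDGFRB, were at 1 FPKM or more in each of the 6 libraries, and none of the 6 epithelial markers reached 1 FPKM in any. Of the endothelial and leukocyte markers, TEK was above 1 FPKM in the 3 libraries of the JNKi table, with 2.52, 3.77 and 10.4 FPKM, and LYZ was at 2.03 FPKM in JUN AA. The summed endothelial markers were highest in iCAFs+JNKi, at 11.0 FPKM, and CDH5 was listed at 0 in all 6 libraries, and their part in the collagen values was not tested. None of 10 housekeeping genes was listed at 0. They differed by -0.45 (RPLP0) to 0.91 (EEF1A1) between JUN WT and the control, by -0.94 (ACTB) to 0.73 (HPRT1) between JUN AA and the control, and by -0.77 (GAPDH) to 1.86 (RPL13A) between iCAFs+JNKi and iCAFs. The range was -1.03 (RPLP0) to 1.00 (ACTB) between JUN WT and JUN AA, and -0.27 (TUBB) to 0.43 (TBP) between iCAFs and MRC5.

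Several collagen genes are neighbors in the genome. The region between the starts of 1 such pair is shown because both genes differed in the same direction in each of the 5 comparisons. This is not particular to the pair. All 22 collagen genes that passed the filter were lower with either form of JUN, and 21 of 24 were higher with JNKi. COL6A2, COL6A3 and COL16A1 had the same directions as this pair in all 5 comparisons. COL4A1 and COL4A2, the main chains of type IV collagen, lie head to head on chromosome 13, with 126 bases between their canonical transcription starts in GRCh37 with the GENCODE annotation, and 80.2% of these bases are G or C. The 100 bases next to the COL4A1 start (chr13:110959505-110959604, plus strand, GRCh37), with the CCAAT motif in capitals, read as follows.
COL4A1-COL4A2: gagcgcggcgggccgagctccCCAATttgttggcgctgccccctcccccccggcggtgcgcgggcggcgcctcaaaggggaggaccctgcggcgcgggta
COL4A6 and COL4A5 on chromosome X are also head to head, with 1415 bases between their starts. They too differed in the same direction in each comparison made, and COL1A1, COL5A1, COL7A1, COL8A1 and COL13A1 had the same directions. Between JUN WT and JUN AA, COL4A6 differed by only -0.025. With each library scaled to a common FPKM sum it differed by 0.15 there, beside -0.016 for COL4A5. The comparisons share libraries and are not independent, and the part of either start region in these values was not tested. COL3A1 and COL5A2 lie tail to tail on chromosome 2, 19151 bases apart, and COL6A1 and COL6A2 lie in the same orientation on chromosome 21, 93061 bases apart. COL3A1 and COL5A2 differed in opposite directions between JUN WT and JUN AA, by 0.21 and -0.12. COL6A1 and COL6A2 did so between iCAFs and MRC5, by -0.088 and 0.12. In the other comparisons the genes of each of these pairs differed in the same direction.

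The 250 bases before the canonical start are shown for COL1A2, a chain of type I collagen whose window held both a CCAAT and a TATA match. They are written 5′ to 3′ on the strand of the gene and were read from GRCh37 at chr7:94023957-94024206 (plus strand), with capitals for the motifs CCAAT or ATTGG and TATAAA or TTTATA.
COL1A2: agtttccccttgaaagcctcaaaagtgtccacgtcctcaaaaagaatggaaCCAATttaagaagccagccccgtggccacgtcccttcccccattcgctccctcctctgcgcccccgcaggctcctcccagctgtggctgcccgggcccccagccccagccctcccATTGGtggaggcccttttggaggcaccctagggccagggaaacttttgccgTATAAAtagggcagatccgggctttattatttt
The letters TATAAA began 33 bases before the start of COL1A2, and the window held 2 CCAAT or ATTGG matches. Motifs were counted on both strands in the windows of 21 of the 24 collagen genes that passed the filter in at least 1 table and in those of 19866 protein-coding genes. A CCAAT match was found for 7 of the 21 genes (33.3%) and in 34.3% of all windows. A TATA match was found for 4 of them, COL1A2, COL6A2, COL7A1 and COL13A1 (19.0%), and in 9.26% of all windows, and the GC box GGGCGG or CCGCCC for 15 (71.4%) and in 59.1% of all windows. A match describes letters in these windows and not a bound site.

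Of the 44 collagen genes, 22 were above the filter with JUN overexpression and 24 in the JNKi table, where COL14A1 and COL24A1 were added. The other 20 genes passed in neither table, and the highest value among them was 0.817 FPKM, for COL8A2 in MRC5. They were COL2A1 and COL11A2 of the fibrillar class, COL4A3 and COL4A4 of the basement membrane class, COL9A1, COL9A2, COL9A3, COL19A1, COL20A1, COL21A1 and COL22A1 of the FACIT class, COL6A5 and COL6A6 of the beaded class, and COL8A2, COL10A1, COL17A1, COL23A1, COL25A1, COL26A1 and COL28A1. COL20A1 and COL22A1 were listed at 0 in all 6 libraries. Of the chains known from cartilage, COL2A1, COL9A1 and COL10A1 were thus under 1 FPKM throughout, while COL11A1 and COL27A1 passed the filter in both tables. The hemidesmosome collagen of epithelium, COL17A1, was also under 1 FPKM throughout. Nearest to the filter in the JUN overexpression table were COL24A1, with a mean of 0.893 FPKM, and COL4A6, with a mean of 1.09 FPKM. In the JNKi table they were COL8A2 with 0.469 FPKM and COL24A1 with 1.83 FPKM. With JUN overexpression, 20 genes reached 1 FPKM in every library, and COL4A6 and COL15A1 passed with a library below it, while 23 did so in the JNKi table and COL14A1 passed through its iCAFs+JNKi value alone.

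COL1A1, the alpha 1 chain of type I collagen, had the highest level of all collagen genes in each of the 6 libraries. It ranked 22 among all genes of the control, 76 among those of JUN WT and 91 among those of JUN AA. In the JNKi table it ranked 28 in MRC5, 26 after CM treatment and 3 after JNKi treatment. COL1A2 and COL6A2 followed it in each library of the JUN overexpression table and in MRC5 and iCAFs. In iCAFs+JNKi the order after COL1A2 was COL6A3 at 1067 FPKM, COL6A2 at 1014 FPKM and COL4A2 at 749.7 FPKM. With 1 library each, it cannot be said which neighbors in these orders differ beyond their spread.

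**Figure D1:**
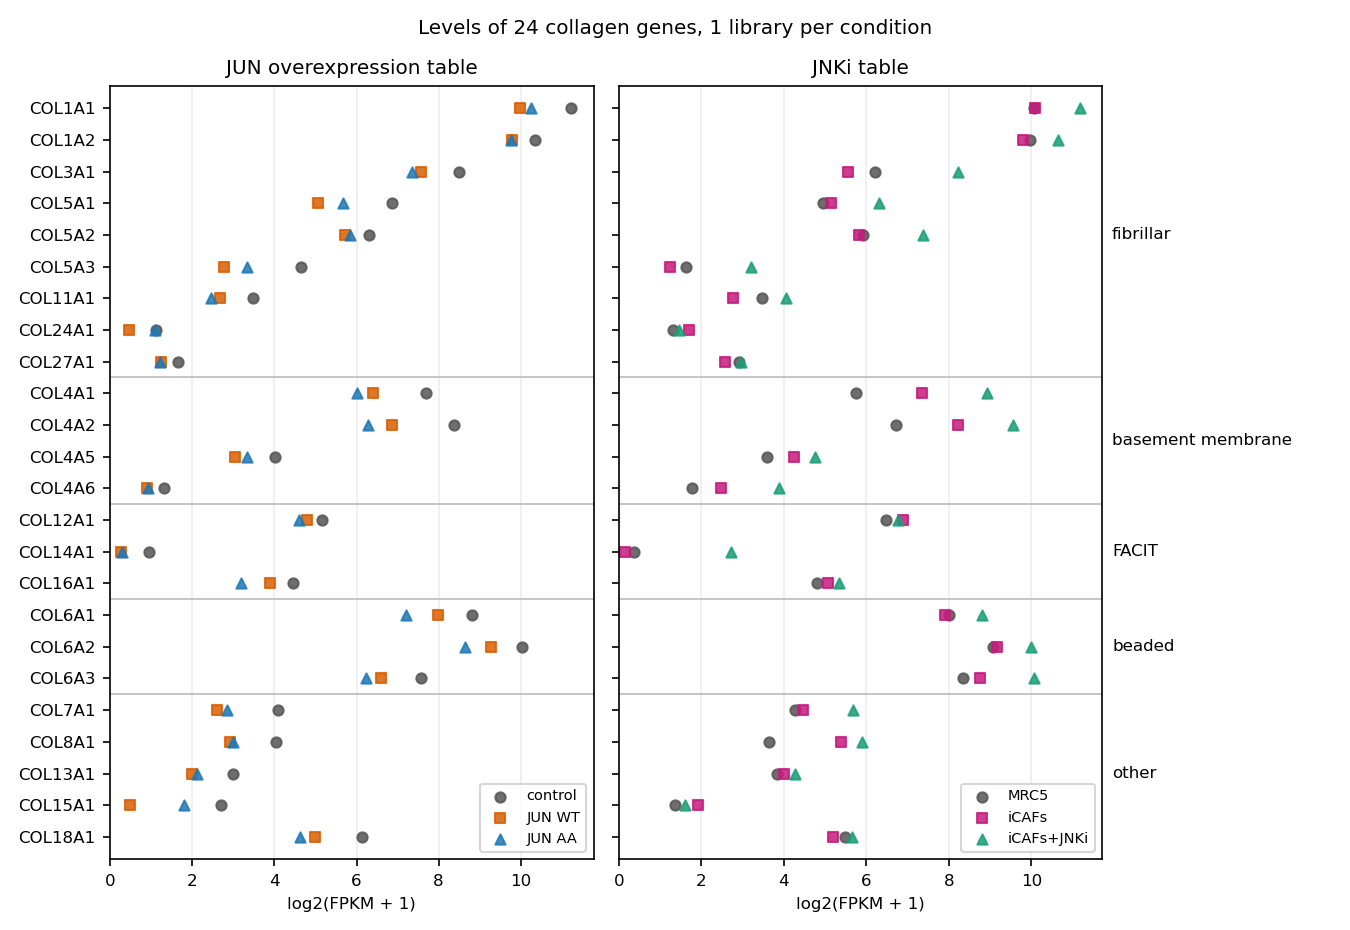
Level of each of the 24 collagen genes that passed the filter in at least 1 table, as log2(FPKM + 1) on the horizontal axis, with 1 point per library and genes grouped by class. On the left the control lies to the right of JUN WT and JUN AA for the 22 genes that passed there, and on the right iCAFs+JNKi lies farthest to the right for 21 of 24 genes. The share of all genes with either pattern is not given here.

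The first question was how the collagen genes stood with JUN WT and with JUN AA against the empty vector. All 22 collagen genes that passed the filter were lower with JUN WT than with the empty vector, and all 22 were lower with JUN AA, while 39.1% and 51.4% of all genes were lower. Over all 44 collagen genes without the filter, JUN WT had 8 higher and 34 lower, and JUN AA had 2 higher and 35 lower, where the rest were equal and most of the added genes lay near 0. COL4A6 and COL15A1 passed the filter with a JUN library below 1 FPKM, so the filter itself bears on their place in these counts. In JUN WT 10 were at least 2-fold lower and 0 at least 2-fold higher, while of all genes 3.39% were 2-fold lower and 6.92% 2-fold higher. In JUN AA 13 were at least 2-fold lower and 0 at least 2-fold higher, against 3.77% and 5.29% of all genes. The median difference of the collagen genes was -0.97 with JUN WT and -1.09 with JUN AA, beside medians of 0.15 and -0.015 over all genes. Both comparisons share the control library, so a high control and low JUN libraries cannot be told apart, and in bulk samples fewer cells that make collagen and less collagen mRNA per cell cannot be told apart either. COL4A1, COL4A2, COL5A1, COL5A3, COL7A1, COL8A1 and COL18A1 were 2-fold lower in both libraries, 3 genes passed this limit in JUN WT alone (COL1A1, COL13A1 and COL15A1) and 6 in JUN AA alone (COL3A1, COL6A1, COL6A2, COL6A3, COL11A1 and COL16A1), several of them with values close to the limit in both. The share of all genes in each of these groups is not given here, so the overlap cannot be judged against it. Which genes fell past the limit depended on the processing. In JUN WT, COL13A1 (-0.79) and COL18A1 (-0.81) were short of 2-fold with the GC content trend removed, and COL3A1, COL4A5, COL6A3 and COL11A1 passed it. Of these, COL3A1, COL4A5 and COL6A3 also passed it with centring on the median gene alone, and COL11A1 did not (-0.95). In JUN AA, COL3A1 (-0.94) and COL11A1 (-0.97) were short of it with that trend removed, and COL1A1, COL4A5, COL13A1 and COL15A1 passed it after each library was scaled to a common FPKM sum.

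**Figure D2:**
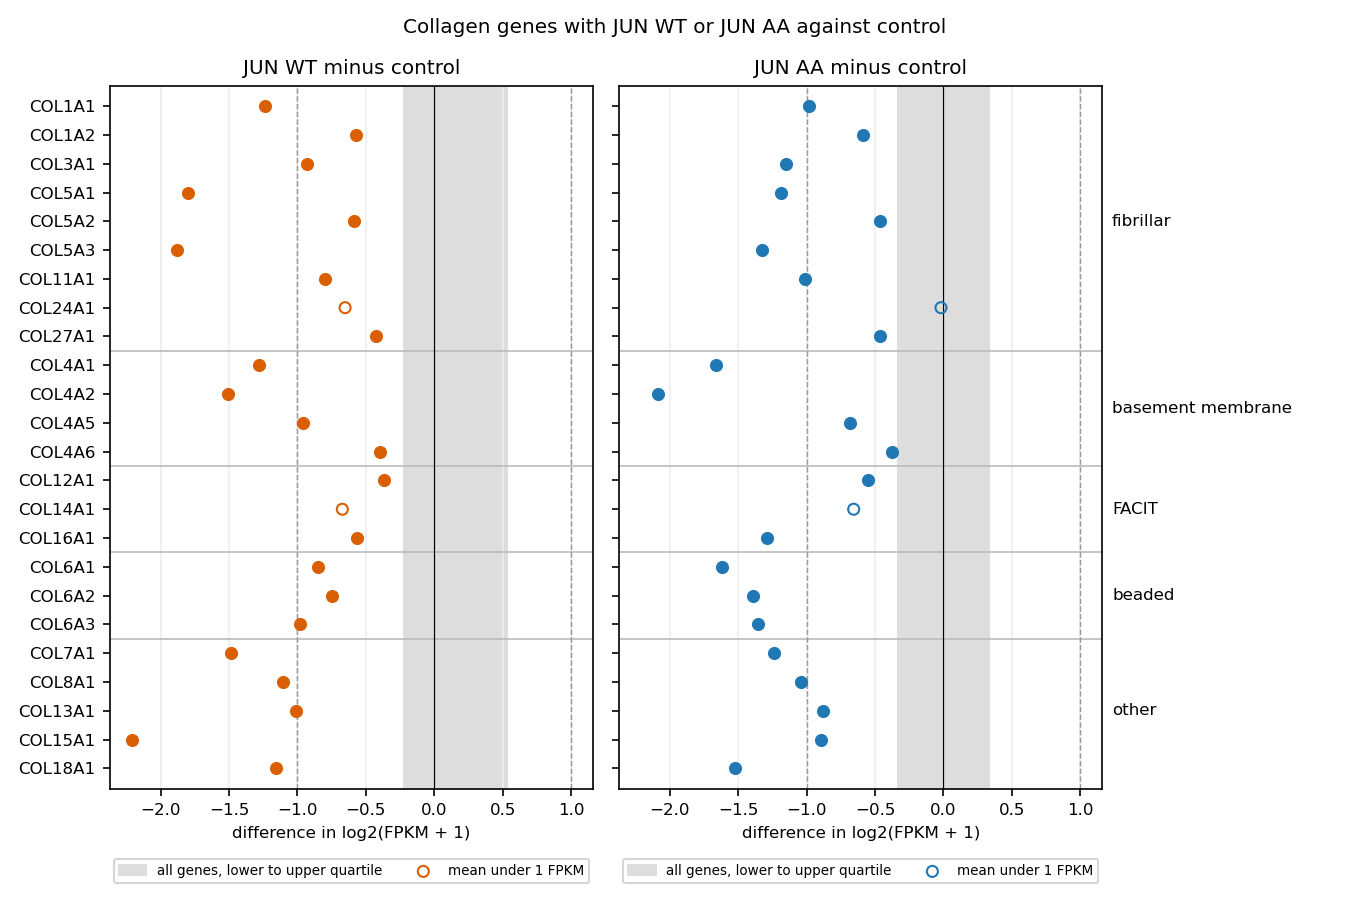
Difference in log2(FPKM + 1) of each collagen gene between JUN WT and the control (left) and between JUN AA and the control (right). Dashed lines mark 2-fold, the grey band spans the lower to the upper quartile of all genes, and open circles are 2 genes with a mean under 1 FPKM. Filled points lie between -2.21 and -0.37 on the left and between -2.08 and -0.37 on the right.

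Among the fibrillar collagens, COL1A1 was at 2388 FPKM in the control and 1014 and 1208 FPKM in JUN WT and JUN AA, differences of -1.23 and -0.98. COL1A2, which encodes the partner chain of type I collagen, was at 1309 FPKM in the control against 882 with JUN WT and 871 with JUN AA, and its differences of -0.57 and -0.59 were smaller than those of COL1A1. COL3A1, the chain of type III collagen of elastic tissues such as vessel wall and lung, was at 362 FPKM in the control and 189 and 163 FPKM in JUN WT and JUN AA. Its differences were -0.93 in JUN WT and -1.15 in JUN AA, on either side of the 2-fold limit. The sides swapped with the GC content trend removed, to -1.08 and -0.94, and both values were past the limit with centring on the median gene, at -1.08 and -1.13. Removal of the trend also centres the differences, and in JUN WT its value was near that of centring alone.

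Type V collagen is a minor component of fibrils that is known to control where they start and how wide they grow. COL5A1 was at 115 FPKM in the control against 32.4 with JUN WT and 49.9 with JUN AA, and its difference of -1.80 in JUN WT exceeded that of -1.19 in JUN AA. COL5A3 differed by -1.88 with JUN WT and -1.33 with JUN AA, and was at 24.1 FPKM in the control and 5.84 and 9.01 FPKM in JUN WT and JUN AA. COL5A2, the neighbor of COL3A1, differed less, with 78.6 FPKM in the control against 52.0 with JUN WT and 56.7 with JUN AA and differences of -0.59 and -0.47. The 3 chains of this collagen thus differed in size but not in direction.

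COL11A1, a chain of type XI collagen that is best known from cartilage, was at 10.2 FPKM in the control and 5.40 and 4.53 FPKM in JUN WT and JUN AA. COL27A1, also a cartilage-associated fibrillar collagen, was lower by less, with 2.17 FPKM in the control against 1.36 with JUN WT and 1.31 with JUN AA. COL24A1 did not pass the filter in this table and was at 1.16 FPKM in the control and 0.377 and 1.14 FPKM in JUN WT and JUN AA, so that JUN AA stood near the control and JUN WT below both.

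All 4 basement membrane genes that passed were lower in both libraries, with a median of -1.12 in JUN WT and -1.17 in JUN AA. COL4A1 was at 204 FPKM in the control against 83.6 with JUN WT and 64.1 with JUN AA. COL4A2 was at 329 FPKM in the control and 115 and 76.9 FPKM in JUN WT and JUN AA. COL4A2 had the largest difference of the 22 genes in JUN AA, -2.08, beside -1.51 in JUN WT, and COL4A1 differed by -1.66 in JUN AA and -1.28 in JUN WT. COL4A5, which with COL4A6 belongs to the type IV networks of smooth muscle and skin basement membranes, was at 15.1 FPKM in the control against 7.25 with JUN WT and 9.02 with JUN AA. Unlike COL4A1 and COL4A2, it was lower in JUN WT than in JUN AA. COL4A6 lay near the filter, with 1.47 FPKM in the control and 0.877 and 0.910 FPKM in JUN WT and JUN AA.

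The beaded class held COL6A1, COL6A2 and COL6A3, which together make up the common form of type VI collagen. COL6A1 was at 451 FPKM in the control against 250.1 with JUN WT and 146 with JUN AA. COL6A2 was at 1041 FPKM in the control and 619 and 395 FPKM in JUN WT and JUN AA. COL6A3 was at 190.4 FPKM in the control against 96.1 with JUN WT and 73.7 with JUN AA. In JUN WT their differences were -0.85, -0.75 and -0.98, all short of 2-fold, and in JUN AA they were -1.62, -1.39 and -1.36, all past it. In JUN WT, COL6A3 was past the limit with centring (-1.13), with the GC content trend removed (-1.05) and with the length trend removed (-1.01), and COL6A1 with the length trend removed (-1.04), while COL6A2 stayed short of it under each of these. Of the FACIT class, COL12A1, which is known from tendon and other tissues under load, differed by -0.37 in JUN WT, with 34.6 FPKM in the control and 26.6 and 23.4 FPKM in JUN WT and JUN AA. COL16A1, a minor fibril-associated collagen, was at 21.1 FPKM in the control against 13.9 with JUN WT and 8.04 with JUN AA, and its differences were -0.57 and -1.29. COL14A1 lay under 1 FPKM in each library, with 0.931 FPKM in the control and 0.212 and 0.226 FPKM in JUN WT and JUN AA.

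The remaining classes held 5 genes that passed, and all 5 were at least 2-fold lower in JUN WT, though COL13A1 and COL18A1 not with the GC content trend removed. COL15A1, which encodes a collagen next to basement membranes that carries an endostatin-like domain, showed the largest difference of the 22 genes in JUN WT, -2.21, and was at 5.45 FPKM in the control against 0.395 with JUN WT and 2.48 with JUN AA. COL18A1, the source of endostatin itself, was at 69.3 FPKM in the control and 30.5 and 23.5 FPKM in JUN WT and JUN AA, and its difference was larger in JUN AA (-1.52) than in JUN WT (-1.16). COL7A1, the anchoring fibril collagen that ties epithelium to the dermis, was at 15.9 FPKM in the control against 5.05 with JUN WT and 6.16 with JUN AA. COL8A1, a network-forming collagen of vessel wall and cornea, was at 15.4 FPKM in the control and 6.63 and 6.96 FPKM in JUN WT and JUN AA. COL13A1, a transmembrane collagen, was at 7.00 FPKM in the control against 2.98 with JUN WT and 3.34 with JUN AA. These 3 genes differed less between JUN WT and JUN AA than either did from the control.

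JUN WT was then set against JUN AA. Of the 22 genes, 12 were higher and 10 lower in JUN WT, where 62.5% of all genes were higher, with a median difference of 0.025 beside 0.18 over all genes. With centring on the median gene 9 were higher and 13 lower, with a median of -0.16. No collagen gene was 2-fold higher in JUN WT, where 6.65% of all genes were, and 1 gene, COL15A1 with -1.32, was 2-fold lower, where 5.61% of all genes were. All 3 type VI genes were higher in JUN WT than in JUN AA, by 0.77 (COL6A1), 0.65 (COL6A2) and 0.38 (COL6A3), and so were COL16A1 (0.72), COL4A2 (0.58) and COL4A1 (0.38). COL5A1 and COL5A3 lay on the other side, with -0.61 and -0.55. The housekeeping genes RPLP0 and ACTB differed by -1.03 and 1.00 in this comparison. The direction of small differences depended on scaling. With each library scaled to a common FPKM sum, 6 of the 22 genes changed direction and COL6A1 and COL16A1, with 1.07 and 1.03, became 2-fold higher in JUN WT, while the 9 genes named here kept their direction under each scaling and trend alternative.

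Transcripts of collagen genes are long and rich in G and C, and GC content moved with the differences across genes. The canonical transcripts of the 22 genes had a median GC content of 57.1%, beside 49.6% over all genes, and a median length of 6326.5 bases, beside 3119 bases. Across genes, which are not independent replicates, the Spearman correlation of the difference with GC content was -0.39 for JUN WT and -0.32 for JUN AA, and that with transcript length was -0.023 and -0.19. The 12 collagen genes with at least 55% GC had a median difference of -1.20 with JUN WT and -1.31 with JUN AA, where all genes of this GC range had -0.19 and -0.15. For the 10 collagen genes below 55% the medians were -0.87 and -0.79, where all such genes had 0.31 and 0.034. With the trend along GC content taken out, an alternative added after the data were seen, all 22 genes were still lower in both libraries, with medians of -1.04 and -0.99. Taking out the trend also centres the differences, and with centring on the median gene alone the medians were -1.12 and -1.08. The 8 fibroblast markers summed to 2235 FPKM in the control against 3484 with JUN WT and 2437 with JUN AA, most of it VIM. PDGFRB, PDGFRA and THY1 were lower in both JUN libraries, the first pair by at least 2-fold, while FAP (0.38 and 0.91) and VIM (0.98 and 0.10) were higher in both. LUM (-1.88 and 1.34), DCN (-0.42 and 0.35) and S100A4 (0.071 and -0.054) differed in direction between JUN WT and JUN AA. The part of these markers in the collagen values was not tested.

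The second table asked how the collagen genes stood after CM treatment and after JNKi treatment of iCAFs. From MRC5 to iCAFs the collagen genes moved in both directions. Of 24 genes 15 were higher and 9 lower in iCAFs, where 40.6% of all genes were higher and 59.4% lower, with a median difference of 0.17 beside -0.061 over all genes. COL4A1, COL4A2 and COL8A1 were at least 2-fold higher, where 1.94% of all genes were, and 0 were 2-fold lower, where 1.71% were. With JNKi 21 of the 24 genes were higher than in iCAFs and 3 lower, with a median of 0.99 beside -0.099 over all genes, of which 62.6% were lower. Without the filter 29 of all 44 collagen genes were higher with JNKi and 6 lower, and COL14A1 entered the 24 only through its JNKi value. At least 2-fold higher were 12 genes, 6 of them fibrillar and 3 of the basement membrane class, where 2.25% of all genes were, and 0 were 2-fold lower, where 1.97% were. Both comparisons share the iCAFs library, so the steps are not independent. The share of all genes with each of the following patterns is not given here. The 9 genes with their lowest value in iCAFs were COL1A2, COL3A1, COL5A2, COL5A3, COL6A1, COL11A1, COL14A1, COL18A1 and COL27A1, and 12 others were higher in iCAFs than in MRC5 and higher again with JNKi.

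**Figure D3:**
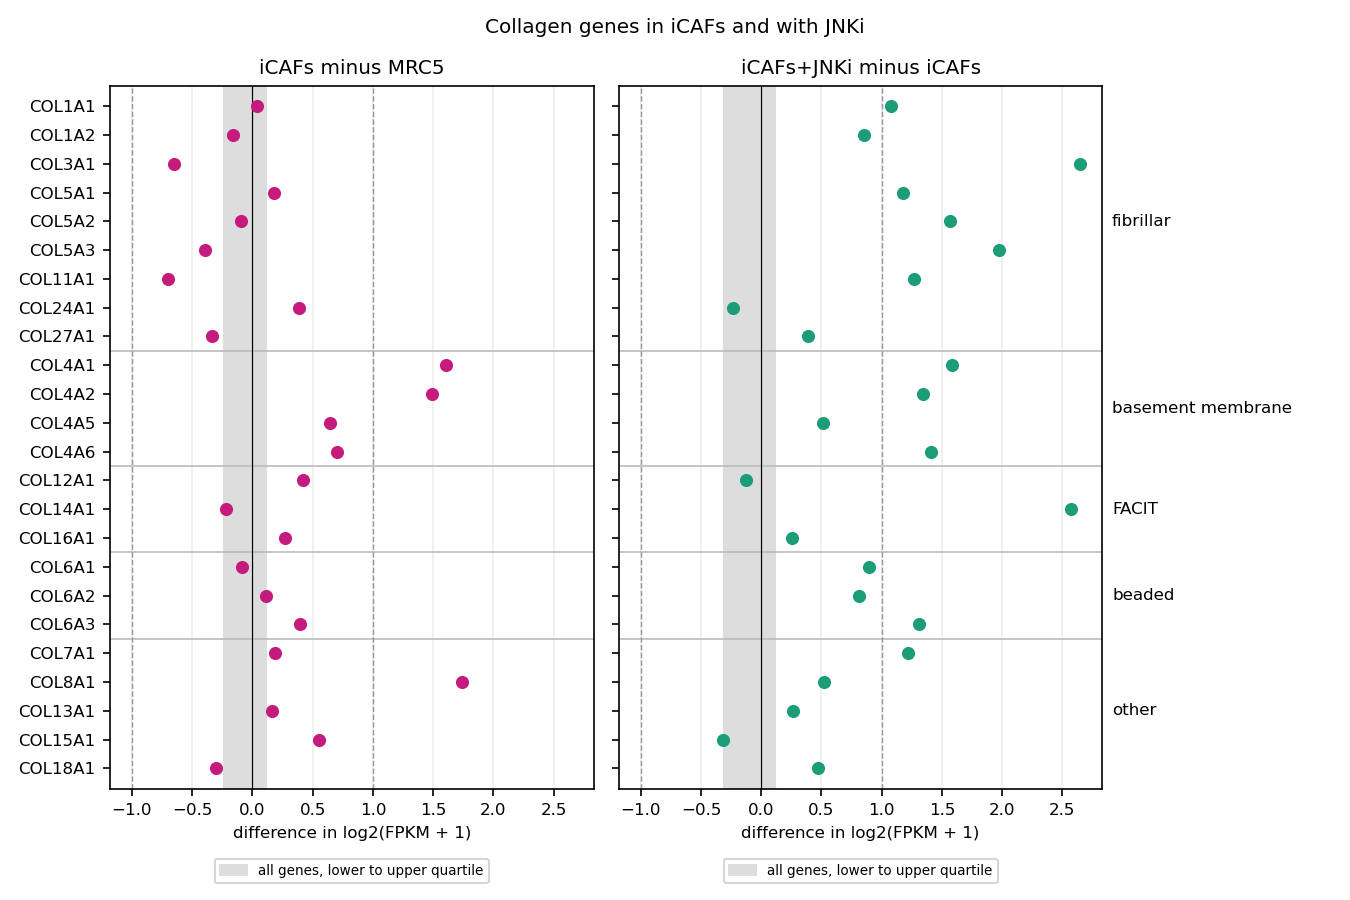
Difference in log2(FPKM + 1) of each of 24 collagen genes between iCAFs and MRC5 (left) and between iCAFs+JNKi and iCAFs (right). Dashed lines mark 2-fold and the grey band spans the lower to the upper quartile of all genes. On the left COL4A1, COL4A2 and COL8A1 lie past the right dashed line, and on the right 12 genes do, led by COL3A1 at 2.65 and COL14A1 at 2.57.

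The basement membrane genes had the highest median of the classes in iCAFs, 1.10, and all 4 that passed were higher than in MRC5. COL4A1 was at 52.5 FPKM in untreated MRC5 against 162 in iCAFs and 488 with JNKi, so that iCAFs held 3.09 times the MRC5 level and iCAFs+JNKi 3.01 times the iCAFs level. COL4A2 was at 104 FPKM in MRC5, 295 after CM treatment and 749.7 after JNKi treatment, with the 2 steps at 2.83 and 2.54 times. These genes, which face away from the shared start region printed above, had differences of 1.61 and 1.49 in iCAFs and of 1.58 and 1.34 with JNKi. COL4A5 was at 11.1 FPKM in untreated MRC5 against 17.9 in iCAFs and 25.96 with JNKi. COL4A6, the gene head to head with it, was at 2.41 FPKM in MRC5, 4.53 after CM treatment and 13.7 after JNKi treatment, and its difference with JNKi was 1.41, larger than that of COL4A5 with 0.51.

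The fibrillar genes were not 2-fold changed in iCAFs, with 3 of 9 higher and 6 lower, but 8 of 9 were higher with JNKi. COL1A1 was at 1065 FPKM in untreated MRC5 against 1094 in iCAFs and 2305 with JNKi, a difference of 1.07 with JNKi. COL1A2 was at 996 FPKM in MRC5, 891 after CM treatment and 1614 after JNKi treatment, a difference of 0.86 with JNKi, so type I collagen differed little in iCAFs. COL3A1 differed by 2.65 with JNKi, the largest value of the 24 genes with a pseudocount of 1 although COL14A1 exceeded it with a pseudocount of 0.1 (4.76 against 2.67) and after rescaling (3.69 against 2.79). This came after a lower value in iCAFs than in MRC5 (-0.66), with 73.6 FPKM in untreated MRC5 against 46.4 in iCAFs and 296 with JNKi. Its neighbor COL5A2 was at 59.2 FPKM in MRC5, 55.3 after CM treatment and 166 after JNKi treatment, a difference of 1.57 with JNKi. COL5A3 was low but had the second of the fibrillar differences, 1.97, with 2.098 FPKM in untreated MRC5 against 1.36 in iCAFs and 8.25 with JNKi. COL5A1 was at 30.1 FPKM in MRC5, 34.3 after CM treatment and 78.7 after JNKi treatment. COL11A1 was lower in iCAFs than in MRC5, with -0.70, and its difference with JNKi was 1.27, with 10.1 FPKM in untreated MRC5 against 5.84 in iCAFs and 15.5 with JNKi. COL27A1 was at 6.56 FPKM in MRC5, 5.00 after CM treatment and 6.85 after JNKi treatment. COL24A1, the only fibrillar gene lower with JNKi, was at 1.49 FPKM in untreated MRC5 against 2.25 in iCAFs and 1.76 with JNKi.

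Of the beaded class, COL6A3 was at 327 FPKM in MRC5, 430.2 after CM treatment and 1067 after JNKi treatment, a difference of 0.40 in iCAFs and 1.31 with JNKi. COL6A1 was at 255 FPKM in untreated MRC5 against 239.6 in iCAFs and 447 with JNKi. COL6A2 was at 533 FPKM in MRC5, 578 after CM treatment and 1014 after JNKi treatment, and both stayed short of 2-fold with JNKi. In the FACIT class, COL14A1, a collagen of dense connective tissue, was at 0.290 FPKM in untreated MRC5 against 0.110 in iCAFs and 5.59 with JNKi. It was thus nearly absent from MRC5 and iCAFs, and because of its low iCAFs value its FPKM ratio of 50.6 to iCAFs rests on very little signal. COL12A1 was at 87.7 FPKM in MRC5, 118 after CM treatment and 107 after JNKi treatment, slightly lower with JNKi than in iCAFs. COL16A1 was at 27.0 FPKM in untreated MRC5 against 32.8 in iCAFs and 39.4 with JNKi.

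COL8A1 had the largest difference of the 24 genes between iCAFs and MRC5, 1.74, and was at 11.5 FPKM in MRC5, 40.7 after CM treatment and 58.9 after JNKi treatment. COL7A1 differed little in iCAFs and passed 2-fold with JNKi (1.22), with 18.4 FPKM in untreated MRC5 against 21.1 in iCAFs and 50.5 with JNKi. COL13A1 was at 13.4 FPKM in MRC5, 15.1 after CM treatment and 18.3 after JNKi treatment. COL18A1 was at 43.9 FPKM in untreated MRC5 against 35.3 in iCAFs and 49.3 with JNKi, and neither of the pair was past 2-fold in either step. COL15A1 was lower with JNKi, with 1.58 FPKM in MRC5, 2.78 after CM treatment and 2.04 after JNKi treatment. The 3 genes lower with JNKi, COL12A1, COL15A1 and COL24A1, differed by -0.13, -0.31 and -0.24.

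In this table the differences followed GC content only weakly, with Spearman correlations across genes of -0.077 for iCAFs against MRC5 and -0.050 for iCAFs+JNKi against iCAFs, and those with transcript length were 0.017 and 0.19. The 12 collagen genes with at least 55% GC had a median difference of 0.99 with JNKi and the 12 below 55% had 1.06. JUN itself was at 57.1 FPKM in untreated MRC5 against 55.3 in iCAFs and 21.1 with JNKi. Of the 8 fibroblast markers 7 were higher in iCAFs+JNKi than in iCAFs, with PDGFRB, DCN and LUM past 2-fold together with PDGFRA, and VIM was lower. The sum of the 8 was 3529.7 FPKM in untreated MRC5 against 2018 in iCAFs and 2049.7 with JNKi, and the part of this in the collagen values was not tested.

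The summed FPKM of all 44 collagen genes was 6694 in the control against 3442 with JUN WT and 3205 with JUN AA, which is 1.35%, 0.690% and 0.523% of all FPKM of these libraries. In the JNKi table the sum was 3735 in MRC5, 4129 after CM treatment and 8630.0 after JNKi treatment, or 0.935%, 1.05% and 2.40% of all FPKM. Among the 100 highest genes of a library, the control had 3 collagen genes, JUN WT 2 and JUN AA 1, while MRC5 had 2, iCAFs 3 and iCAFs+JNKi 6. The make-up of the collagen sum differed as well. Basement membrane genes took 8.22% of it in the control against 6.01% with JUN WT and 4.71% with JUN AA, and 4.56% in untreated MRC5 against 11.6% in iCAFs and 14.8% with JNKi. The fibrillar share was 64.1%, 63.4% and 73.8% in the first table and 60.1%, 51.7% and 52.1% in the second, in the same order of libraries. The beaded class, which is type VI collagen, took 25.1% in the control against 28.04% with JUN WT and 19.2% with JUN AA, and between 29.3% and 30.2% in the JNKi table.

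**Figure D4:**
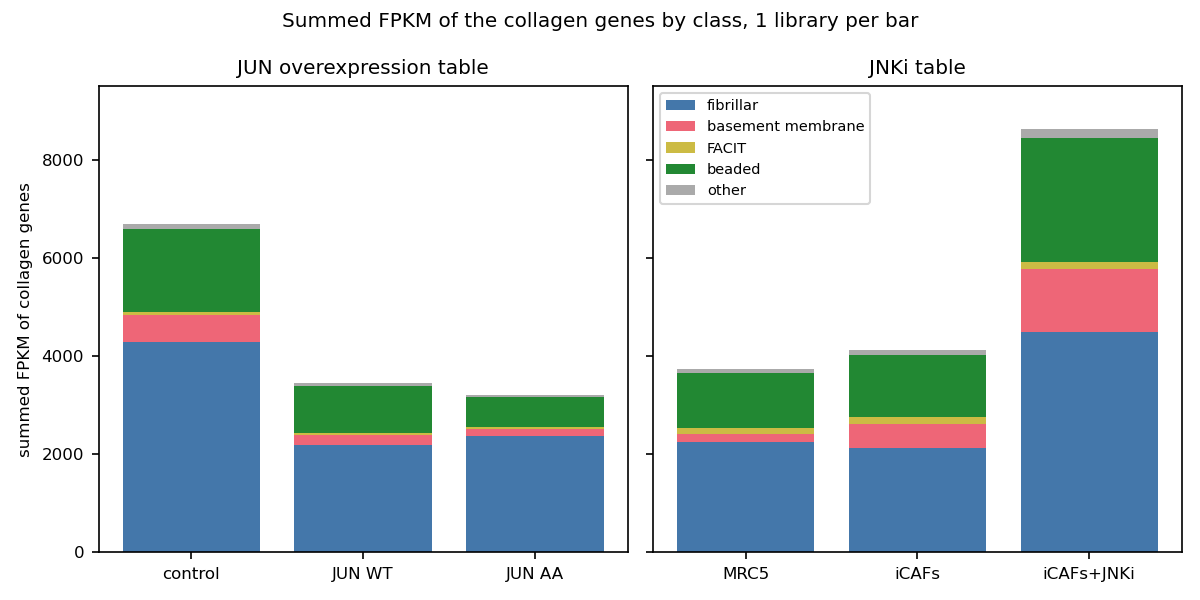
Summed FPKM of the 44 collagen genes in each library, with bars stacked by class and 1 library per bar. The sum is highest in the control of the JUN overexpression table (6694) and in iCAFs+JNKi of the JNKi table (8630.0), and the basement membrane segment is larger in iCAFs and iCAFs+JNKi than in MRC5.

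Ratios between chains of the same collagen within a library do not depend on how that library was scaled. Between libraries they can still follow the GC content trend, because the chains of a pair can differ in GC content. With that trend removed, COL1A1 and COL1A2 differed from the control by -1.03 and -0.57 in JUN WT, instead of -1.23 and -0.57. In JUN AA they differed by -0.89 and -0.37, instead of -0.98 and -0.59. Type I collagen is known as a molecule with more alpha 1 than alpha 2 chains, and the FPKM ratio of COL1A1 to COL1A2 was above 1 in each library. It was 1.82 in the control against 1.15 with JUN WT and 1.39 with JUN AA, and 1.07 in untreated MRC5 against 1.23 in iCAFs and 1.43 with JNKi. COL4A1 to COL4A2 stayed between 0.621 and 0.833 with JUN overexpression and between 0.503 and 0.650 in the JNKi table, although both genes differed several-fold in level. COL6A1 to COL6A2 lay between 0.369 and 0.433 and between 0.415 and 0.478.

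Several other ratios differed more in 1 of the 2 tables. COL3A1 to COL1A1 was 0.152 in the control against 0.186 with JUN WT and 0.135 with JUN AA, while it was 0.0691 in MRC5, 0.0424 after CM treatment and 0.129 after JNKi treatment. COL5A1 to COL5A2 was 1.46 in the control against 0.623 with JUN WT and 0.881 with JUN AA, and between 0.474 and 0.621 in the JNKi table. The canonical transcripts of this pair are 60.25% and 48.29% G or C. With the GC content trend removed, COL5A1 and COL5A2 differed from the control by -1.58 and -0.93 in JUN WT, instead of -1.80 and -0.59. COL6A3 to COL6A2 was between 0.155 and 0.186 in the JUN overexpression table and 0.612, 0.745 and 1.05 in MRC5, iCAFs and iCAFs+JNKi. COL4A5 to COL4A6 was between 8.27 and 10.2 in the JUN overexpression table and 4.59, 3.95 and 1.89 in the JNKi table, in the same order. In the JUN overexpression table COL4A6 was at only 1.47 (control), 0.877 (JUN WT) and 0.910 FPKM (JUN AA), so its ratios there rest on little signal.

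**Figure D5:**
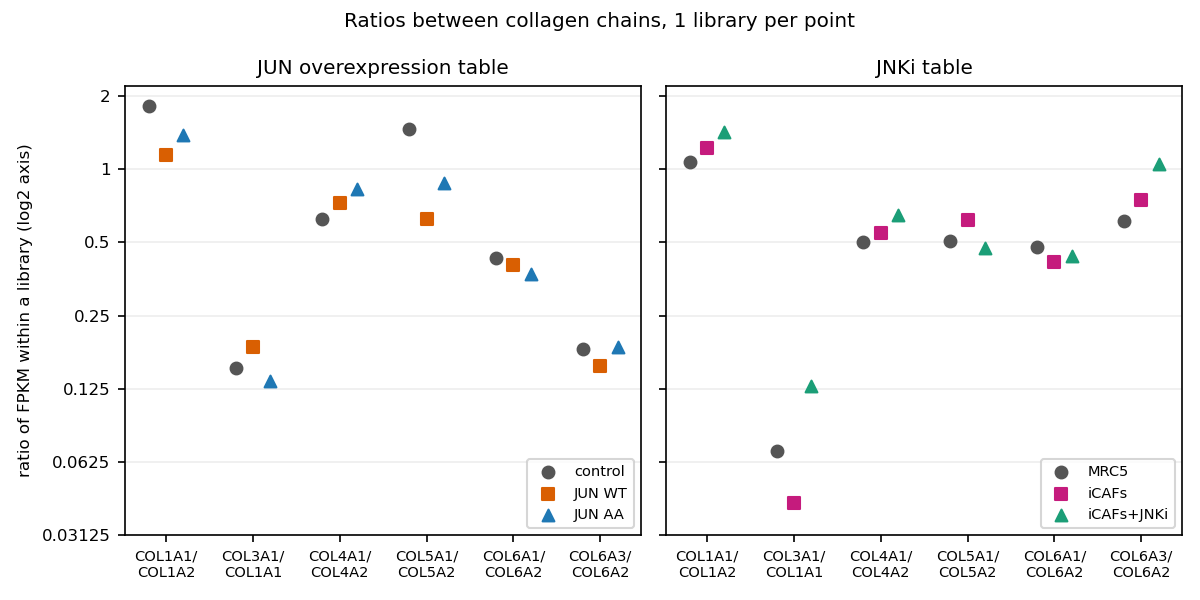
Ratio of the FPKM of pairs of collagen chains within each library, on a log2 axis, with 1 point per library. The ratios of COL4A1 to COL4A2 and of COL6A1 to COL6A2 lie close together within a table, and the ratio of COL3A1 to COL1A1 is lowest in iCAFs, at 0.0424.

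Collagen chains are modified, folded and cut by dedicated enzymes, and a list of 32 such genes was examined beside them, of which 28 were above the filter with JUN overexpression and 27 in the JNKi table. In JUN WT 10 of these 28 were higher and 18 lower than the control, where 60.9% of all genes were higher, with a median of -0.22 beside 0.15 over all genes. LOX, which starts the cross-linking of collagen, was at 51.1 FPKM in the control against 160.1 with JUN WT and 91.3 with JUN AA. LOXL1, a related oxidase, was at 91.6, 204 and 193 FPKM, so both were on the opposite side from the collagen genes. LOX (1.63), LOXL1 (1.15) and FKBP14 (1.01), a folding factor of the endoplasmic reticulum, were 2-fold higher in JUN WT, and BMP1, which removes the C-terminal propeptide of fibrillar collagens, was 2-fold lower (-1.09). Of all genes 6.92% were 2-fold higher in JUN WT and 3.39% were 2-fold lower. In JUN AA 7 were higher and 21 lower, where 51.4% of all genes were lower, with a median of -0.53 beside -0.015 over all genes. In this library ADAMTS14 (1.06), which removes N-terminal propeptides, and LOXL1 (1.06) were 2-fold higher. LOXL2 (-1.69), PCOLCE (-1.42), which enhances BMP1, LEPRE1 (-1.13) and PLOD1 (-1.03), both hydroxylases, and LOXL3 (-1.02) were 2-fold lower. In JUN AA 5.29% of all genes were 2-fold higher and 3.77% were 2-fold lower. Between JUN WT and JUN AA 22 were higher and 6 lower in JUN WT, with a median of 0.28, where all genes leaned the same way with 62.5% higher and a median of 0.18. LOXL2 was the 1 gene that was 2-fold higher (1.52), where 6.65% of all genes were.

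In iCAFs 21 of the 27 processing genes were higher than in MRC5 and 6 lower, where 40.6% of all genes were higher, with a median of 0.29 beside -0.061 over all genes. PLOD2, a lysyl hydroxylase that sets the type of collagen cross-link, was at 23.0 FPKM in untreated MRC5 against 104 in iCAFs and 45.3 with JNKi. PLOD2 (2.13) and LEPREL1 (1.41), a prolyl 3-hydroxylase, were the 2-fold higher genes in iCAFs, where 1.94% of all genes were. With JNKi 21 were higher and 6 lower, where 37.4% of all genes were higher, with a median of 0.36 beside -0.099. PLOD2 (-1.18) was 2-fold lower while P4HA3 and PCOLCE, the latter with 80.8 FPKM in iCAFs and 164 with JNKi, were 2-fold higher. With JNKi 1.97% of all genes were 2-fold lower and 2.25% were 2-fold higher. P4HA3, a chain of prolyl 4-hydroxylase, was at 1.36 FPKM in untreated MRC5 against 2.94 in iCAFs and 14.8 with JNKi. SERPINH1, the collagen chaperone HSP47, was on the same side as most collagen genes without reaching 2-fold, with -0.76 in JUN WT, -0.68 in JUN AA and 0.85 with JNKi, and it was named after its values were seen.

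Of 11 collagen receptors 7 passed the filter in each table. MRC2, an endocytic receptor for collagen, and ITGA11, a collagen-binding integrin of fibroblasts, were 2-fold lower with either form of JUN. Of all genes 3.39% were 2-fold lower in JUN WT and 3.77% in JUN AA. MRC2 differed by -1.12 and -1.51. ITGA11 was at 14.2 FPKM in the control against 6.61 with JUN WT and 2.83 with JUN AA. Of the 7 genes 5 were lower in JUN WT and 6 in JUN AA, where 39.1% and 51.4% of all genes were, with medians of -0.68 and -0.28 beside 0.15 and -0.015 over all genes. ITGA1, a chain of the integrin that binds type IV collagen, was at 16.4 FPKM in untreated MRC5 against 45.9 in iCAFs and 138 with JNKi. It was the receptor that was 2-fold higher in each of these steps, where 1.94% and 2.25% of all genes were. Its order of libraries, rising from MRC5 to iCAFs to iCAFs+JNKi, was that of 12 of the 24 collagen genes, COL4A1 and COL4A2 among them. ITGA11 and MRC2 were among the other receptors with this order, and the share of all genes with it is not given here. The medians of the receptors were 0.40 in iCAFs and 0.24 with JNKi, beside -0.061 and -0.099 over all genes, and 0.40 between JUN WT and JUN AA, beside 0.18, where none was 2-fold changed.

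Of 8 collagen-degrading genes 5 passed the filter in each table. MMP1, the interstitial collagenase, was at 31.1 FPKM in the control against 414 with JUN WT and 155 with JUN AA, and at 344 FPKM in untreated MRC5 against 1042 in iCAFs and 455 with JNKi. Its level was highest in JUN WT in the first table and in iCAFs in the second. With either form of JUN it was 2-fold higher than in the control, it was 2-fold higher in iCAFs than in MRC5, and it was 2-fold lower with JNKi (-1.19). MMP14, a membrane-bound collagenase, was 2-fold lower in JUN WT (-1.08) and in JUN AA (-1.40). Of all genes 6.92% and 5.29% were 2-fold higher in JUN WT and JUN AA, and 3.39% and 3.77% were 2-fold lower. CTSK, a lysosomal protease that cuts collagen, was at 80.3 FPKM in untreated MRC5 against 16.4 in iCAFs and 35.6 with JNKi, 2-fold lower in the first step and 2-fold higher in the next. In iCAFs 1.94% of all genes were 2-fold higher and 1.71% 2-fold lower, and with JNKi 2.25% and 1.97%. CTSK, MMP1 and MMP2, a gelatinase, were 2-fold higher in JUN WT than in JUN AA, with 1.49, 1.41 and 1.37, where 6.65% of all genes were. The medians of the 5 genes were 0.45 in JUN WT, -0.68 in JUN AA, 1.37 between JUN WT and JUN AA, -0.13 in iCAFs and 0.56 with JNKi, where all genes had 0.15, -0.015, 0.18, -0.061 and -0.099.

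Some collagen genes share exon bases with other genes in the annotation, and without a stated strand setting the reads of both cannot be told apart. COL18A1 overlaps SLC19A1, a folate transporter gene on the other strand, and COL4A2 overlaps its antisense genes COL4A2-AS1 and COL4A2-AS2. COL1A1, COL5A1, COL5A3, COL7A1, COL8A1, COL15A1 and COL16A1 each overlap 1 further annotated gene.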

How the data were processed

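The authors mapped the reads of 6 MRC5 libraries to hg19 with HISAT2 2.1.0 and deposited FPKM per gene from StringTie 2.1.1, per the paper and the submitters' processing notes. The annotation, strand setting and number of reads are not given in the sources used here. Low FPKM values of the JNKi table shared ratios of 0.940 to 0.993 between libraries, and those of the JUN overexpression table showed no clear step, so depth stays unknown. Each column was matched to its library by name.

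From the deposited FPKM, differences of log2(FPKM + 1) were calculated with pandas 2.3.3 and numpy 2.4.6 under Python 3.11.15, for 5 comparisons within a table, without a test because each condition has 1 library. The computation was tested on simulated data with set folds and no noise between libraries, which checks the arithmetic and not the precision of the differences. Every collagen gene with a mean of at least 1 FPKM in either table is described, and of the processing, receptor and degradation lists the genes past 2-fold could be named, with exceptions marked. Members and lists were chosen with earlier results of these data known. Alternatives were a smaller pseudocount (0.1), scaling of each library to 1000000 FPKM, centring on the median gene, no filter, a filter of 5 FPKM and sums without 3 genes. Removal of trends with GC content and transcript length, in 20 bins, was added after the data were seen. It subtracts the median of each bin, so it also centres the differences. Sequences came from GRCh37 and positions from GENCODE v44lift37, and the upstream windows of 3 collagen genes are not reported here. Figures were drawn with matplotlib 3.10.9.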

Additional observations from a re-analysis of the deposited data

How the results depend on the processing

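A shift above 0.25 in log2 units, or above 1.5 times for counts and shares, was counted as a move. No paired analysis was possible because each condition has 1 library, and for the same reason no replicate could be left out. Of the summary values under the alternatives, 105 stayed within these limits and 12 moved. The median for JUN WT against JUN AA, 0.025, changed sign within the limits, to -0.16 with centring, -0.19 with the GC content trend removed and -0.18 with the length trend removed, each with 9 genes higher and 13 lower instead of 12 and 10. Without the filter, over all 44 collagen genes, the median difference was -0.41 for JUN WT against control, -0.42 for JUN AA against control and 0.088 for iCAFs+JNKi against iCAFs, since 20 of these genes lay near 0. After scaling each library to a common FPKM sum, the median for JUN AA against control was -1.38, and 2 collagen genes instead of 0 were 2-fold higher in JUN WT than in JUN AA. At a filter of 5 FPKM, 0 instead of 1 were 2-fold lower in JUN WT than in JUN AA, because COL15A1 no longer passed. Without COL1A1, COL1A2 and COL3A1, the collagen share of all FPKM was 0.533% in the control against 0.272% with JUN WT and 0.157% with JUN AA, and 0.401% in untreated MRC5 against 0.533% in iCAFs and 1.23% with JNKi. Of all genes, rescaling raised the share that was 2-fold lower in JUN AA than in the control from 3.77% to 8.87%. For single collagen genes 490 values stayed within the limits and 80 moved. No gene that passed the filter changed direction in JUN WT or JUN AA against control or with JNKi against iCAFs under a pseudocount of 0.1, rescaling, centring or either trend removal, whereas between JUN WT and JUN AA 6 did with rescaling, 5 with the GC content trend removed, 3 with centring and 3 with the length trend removed. Of the collagen genes 2-fold lower in JUN WT, 2 no longer were and 4 others became so with the GC content trend removed, and with centring or the length trend removed 0 were lost and 3 or 4 gained. In JUN AA the same 3 alternatives lost 2, 1 and 2 and gained 0, while rescaling gained 4. The precision of single FPKM values is limited by an unknown depth.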
